A study of Mus musculus with 40 samples.

Results

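The transcripts of 6 genes of the liver's response to fasting, Pdk4, Angptl4, Cpt2, Cpt1a, Ppara and Pex11a, were followed in 40 mouse livers. The genes were picked by name, as those for which the array's probe-to-gene table holds a probe under one of these symbols, and they are 6 of 10842 named genes on the array. The list was drawn up with earlier results of these data known. Counts of its genes beside the share of all probes are therefore a description and not a test. Each had 1 probe. The livers came from C57BL/6J mice, 20 females and 20 males, in 8 groups of 5 animals that differed in sex, gonads and hormone pellet. One group of each sex was intact. The 6 others had been ovariectomized or castrated at 8 weeks of age, and at 12 weeks received a subcutaneous pellet of placebo, estradiol or dihydrotestosterone (DHT) with a stated release time of 21 days. Pellets of estradiol contained 0.5 mg, for a stated plasma level of 300 pg/ml. Those of DHT contained 5 mg, for a stated level of 1 to 2 ng/ml. At 14 weeks the mice were fasted for 12 h and killed, and the diet named for them is a chow with 4% fat. The labels mention no sham operation and no pellet for the intact mice, so surgery, pellet and loss of the gonad cannot be told apart in a comparison of intact with gonadectomized mice.

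When food is withheld, fatty acids released from adipose tissue reach the liver, where they are oxidised in mitochondria and, for part of the pool, in peroxisomes. The nuclear receptor PPARalpha, encoded by Ppara, pairs with a retinoid X receptor on DNA and switches on much of this programme in the fasted liver. Cpt1a encodes the carnitine palmitoyltransferase of the outer mitochondrial membrane, the main control point of fatty acid entry, and Cpt2 the enzyme of the inner membrane that returns the fatty acid to coenzyme A. Pex11a encodes a membrane protein that promotes the division of peroxisomes. Pdk4 encodes a kinase that inhibits the pyruvate dehydrogenase complex and so spares glucose. Angptl4 encodes a secreted inhibitor of lipoprotein lipase.

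RNA of each liver was labelled with Cy5 and hybridised against a Cy3-labelled pool made from all the livers, and the values are log2 ratios of a liver to that pool. A value of 1.00 therefore stands for a level 2 times that of the pool, and levels of different genes cannot be set against each other. As a check of the labels, the Y-linked gene Eif2s3y was lower in all 20 females (at most -3.82) than in every male (at least 0.35). The labelled tissue was liver, and the mean of 6 measured hepatocyte marker genes lay between -0.28 and 0.48 in all animals. Its group means were 0.08 ± 0.09 in intact females, 0.14 ± 0.20 in intact males (SD) and from -0.12 to -0.05 in the gonadectomized groups. As ratios to a pool of livers, these values do not check the tissue. The labels give each animal a number of its own, and p-values rest on the spread between animals within groups. Each animal had a single array with the same dyes, so this spread includes that of arrays and labelling. In bulk liver RNA, fewer cells of a type and less RNA per cell cannot be told apart.

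The stretches from 250 bases before to 50 bases after the start site were read from the RefSeq table of promoters (GRCm38.p6), which held 5 of the 6 genes. Of these, 4 are shown for their relations among animals. With group means removed, levels of Cpt2 and Pex11a varied together (r = 0.67), and those of Cpt1a followed Cpt2 in part (0.53). By the same measure r was 0.18 for Cpt1a and Pex11a (0.55 among estradiol animals, -0.12 among the others). It was negative for Pdk4 with Cpt2 (-0.25) and with Pex11a (-0.10). Over all 40 livers, with group differences included, r was 0.48 for Cpt1a and Pex11a. It was 0.51 there for Pdk4 and Cpt2 and 0.47 for Pdk4 and Pex11a. Capitals mark matches, on either strand, to the nuclear receptor half-site AGGTCA, the GC box core GGGCGG and the CCAAT box. The windows are chr6:5496229-5496528 for Pdk4, chr4:107923540-107923839 for Cpt2 and chr7:79743082-79743381 for Pex11a, all on the minus strand, and chr19:3323051-3323350 for Cpt1a on the plus strand, each written 5′ to 3′ along the gene.
Pdk4: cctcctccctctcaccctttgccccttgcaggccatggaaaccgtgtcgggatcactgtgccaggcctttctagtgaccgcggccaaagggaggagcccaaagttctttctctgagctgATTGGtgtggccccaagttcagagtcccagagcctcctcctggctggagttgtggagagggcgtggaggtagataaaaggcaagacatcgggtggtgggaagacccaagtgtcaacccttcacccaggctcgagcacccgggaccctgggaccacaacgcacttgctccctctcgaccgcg
Cpt2: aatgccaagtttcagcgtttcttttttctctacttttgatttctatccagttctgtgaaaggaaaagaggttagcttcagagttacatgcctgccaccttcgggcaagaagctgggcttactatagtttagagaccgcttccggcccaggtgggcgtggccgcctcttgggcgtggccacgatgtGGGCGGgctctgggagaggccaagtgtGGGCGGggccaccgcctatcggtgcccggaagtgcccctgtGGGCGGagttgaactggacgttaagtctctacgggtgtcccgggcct
Pex11a: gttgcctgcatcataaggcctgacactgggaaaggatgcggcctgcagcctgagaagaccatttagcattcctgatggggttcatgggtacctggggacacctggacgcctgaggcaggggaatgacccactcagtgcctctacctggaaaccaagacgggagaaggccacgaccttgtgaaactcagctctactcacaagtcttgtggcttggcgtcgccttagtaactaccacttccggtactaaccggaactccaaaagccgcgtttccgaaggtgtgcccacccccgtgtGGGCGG
Cpt1a: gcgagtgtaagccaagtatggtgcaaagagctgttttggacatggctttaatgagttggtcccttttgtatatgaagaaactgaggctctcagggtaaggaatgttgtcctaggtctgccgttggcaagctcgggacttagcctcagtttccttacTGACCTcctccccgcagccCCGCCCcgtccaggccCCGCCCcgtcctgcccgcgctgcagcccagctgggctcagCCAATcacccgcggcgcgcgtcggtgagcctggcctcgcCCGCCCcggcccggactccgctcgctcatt

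AGGTCA is the core half-site of PPARalpha and related receptors, and it occurred once among the 5 promoters, in Cpt1a, as TGACCT at position -94 from the start. It was present in 16.3% of the 32851 promoters of the table. GGGCGG, the core of the box bound by Sp1, was present in 35.7% of promoters. It occurred 3 times in Cpt2, 3 times in Cpt1a, 2 times in Ppara, once in Pex11a and not in Pdk4. CCAAT, the core bound by NF-Y, was present in 37.4% of promoters and occurred once each in Cpt1a (position -19) and Pdk4 (position -131, as ATTGG). The full DR1 element of PPARalpha, a direct repeat of that half-site with 1 base between the copies, the palindromic estrogen response element and the palindromic androgen and glucocorticoid response element were searched on both strands as well, and had no match in the 5 windows. They were found in 0.0396%, 0.07% and 0.0487% of promoters. Every DR1 match also holds the half-site, and a match is only a description of letters.

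Pdk4 varied most among animals and groups. Its SD over the 40 livers was 0.93, against 0.43 for Pex11a, 0.39 for Angptl4, 0.33 for Ppara, 0.30 for Cpt2 and 0.23 for Cpt1a. Groups were compared with limma, with p-values adjusted over all 23574 probes, and a gene was counted as higher or lower where the adjusted p was under 0.05. By that rule 15 of 102 combinations of a gene and a comparison passed, and in 14 of the 15 the level was lower in gonadectomized than in intact mice, with a hormone than with placebo, or under estradiol than under DHT. Sorted by their means, neighbouring groups overlapped in range for every gene. Of the 7 steps between neighbours, 1 exceeded the pooled SD of the pair for Pdk4, 2 for Angptl4, 2 for Cpt2, 0 for Cpt1a, 1 for Ppara and 1 for Pex11a.

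**Figure D1:**
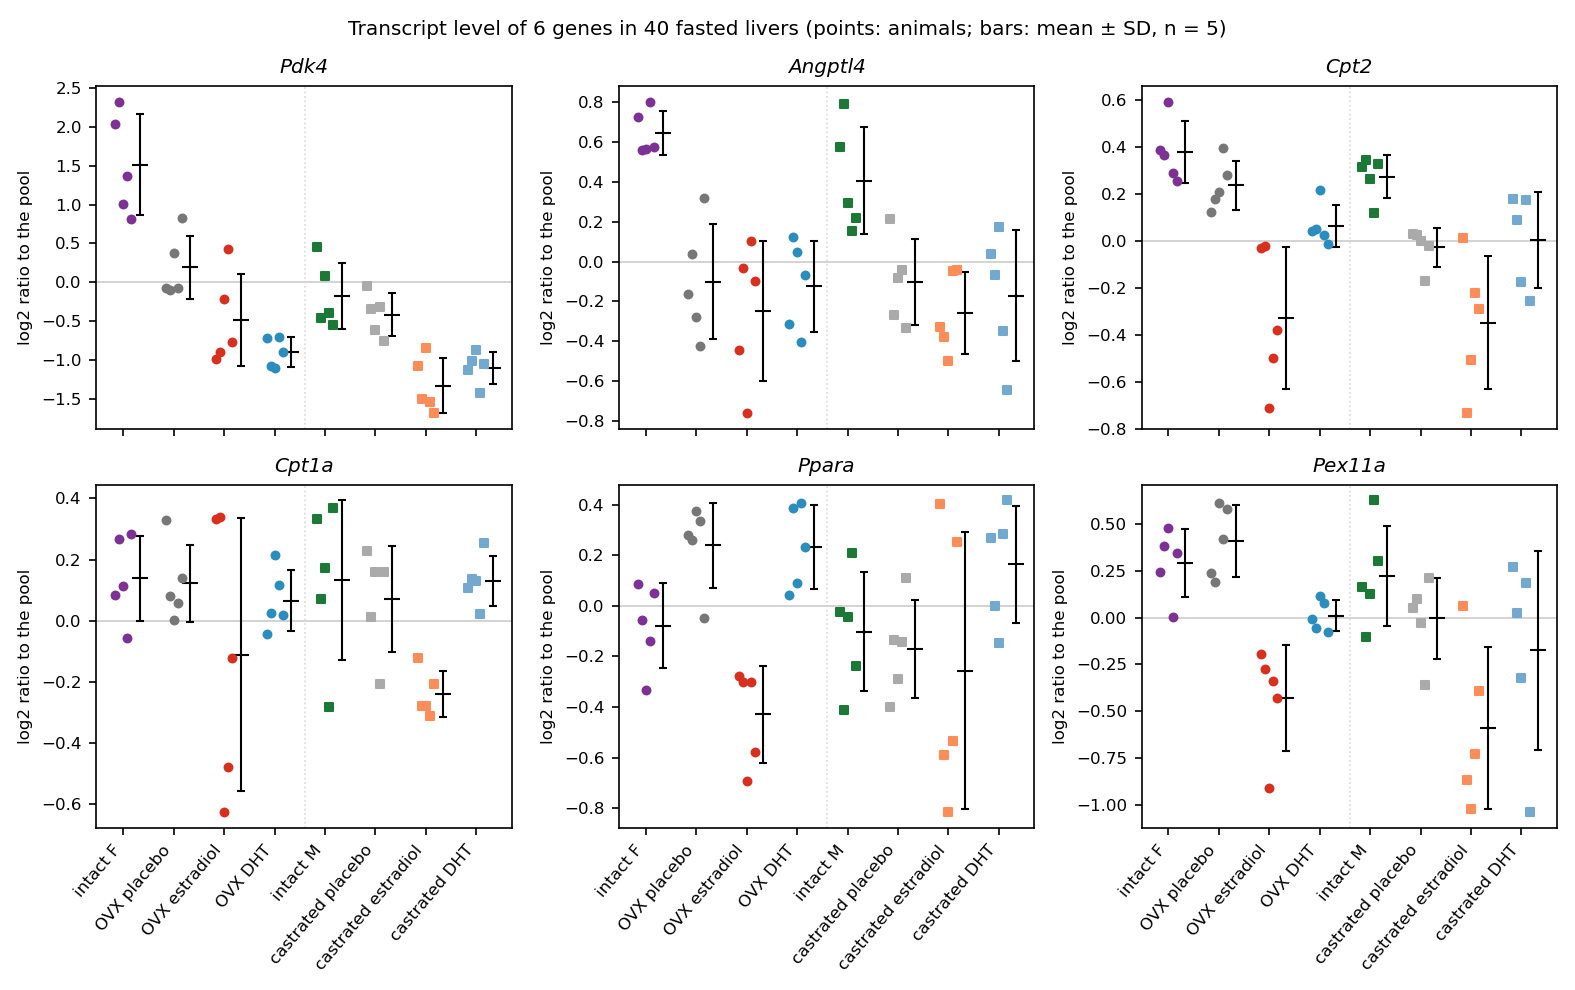
Log2 ratio to the pool of each gene (y axis) in the 8 groups (x axis; F female, M male, OVX ovariectomized). Points are animals, and bars to their right are the mean ± SD of 5. Pdk4 is highest in intact females (0.82 to 2.33), Angptl4 is highest in both intact groups, and Cpt2 and Pex11a are lowest in the estradiol groups.

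Intact females had more Pdk4 mRNA than intact males, and this was the one gene of the 6 that differed between the intact sexes. The 5 females were at 2.04, 2.33, 1.01, 1.37 and 0.82, and the 5 males at 0.45, -0.46, 0.08, -0.40 and -0.55. Every female lay above every male. The difference was 1.69 ± 0.25 (SE), or 3.23-fold (adjusted p 1.13e-05, limma), and it was 1.49 to 1.86 with each animal left out in turn. In this comparison 1 of 6 genes passed, where 8.69% of all probes did. Differences between intact females and males were 0.24 for Angptl4, 0.10 for Cpt2, 0.07 for Pex11a, 0.02 for Ppara and 0.01 for Cpt1a, with 95% intervals that reached from -0.31 to 0.56 over these 5 genes.

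Pdk4 was lower in ovariectomized females on placebo than in intact females. The 5 ovariectomized females on placebo were at -0.07, -0.11, 0.38, -0.07 and 0.83, and the last of these, animal 20, overlapped the lowest intact female. The difference from intact females was -1.32 ± 0.25 (adjusted p 0.0387, limma), a 2.50-fold fall, and Pdk4 was 1 of 6 genes to pass where 0.0339% of all probes did. The adjusted p exceeded 0.05 without intact females 1, 2 or 4 or ovariectomized females 16, 17, 18 or 19, with differences from -1.12 to -1.37. In castrated males on placebo Pdk4 was at -0.05, -0.35, -0.61, -0.32 and -0.76, and these animals overlapped the intact males. The difference there was -0.24 ± 0.25 (adjusted p 0.565). The gap between the responses of the sexes to gonadectomy was -1.08 ± 0.36 with an adjusted p of 0.0845, so it did not pass. It passed without intact female 5 (-1.25), intact male 8 (-1.24) or ovariectomized female 20 (-1.24).

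Both hormone pellets went with low Pdk4 in both sexes, and 1 of these 4 comparisons passed. In ovariectomized females on DHT the 5 values were -0.72, -1.08, -1.11, -0.70 and -0.90, all below the placebo group. DHT lowered Pdk4 by -1.09 ± 0.25 (2.14-fold, adjusted p 0.0218, limma), and Pdk4 was 1 of 6 genes to pass where 1.15% of all probes did. The adjusted p rose to between 0.06 and 0.0845 without animals 18, 20, 51, 52 or 54, with differences from -0.93 to -1.09. In castrated males on DHT the values were -1.13, -1.02, -0.87, -1.43 and -1.05, again all below the placebo group. That difference was -0.68 ± 0.25 with an adjusted p of 0.141, so it did not pass. None of the 6 genes passed in this comparison in limma (2 at an unadjusted p under 0.05), where 3.47% of all probes did.

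Under estradiol the castrated males were at -1.08, -1.51, -0.84, -1.55 and -1.69 for Pdk4, the lowest group mean of the study (-1.33 ± 0.35, SD, n = 5). All 5 lay below the castrated males on placebo, yet the difference of -0.92 ± 0.25 had an adjusted p of 0.064 (0.0485 without animal 44, at -1.04). In ovariectomized females on estradiol the values were -0.99, -0.89, -0.21, 0.43 and -0.77 and overlapped those on placebo. The difference was -0.68 ± 0.25 (adjusted p 0.246). Pdk4 in ovariectomized females on estradiol was 4.01-fold below that in intact females (SE 0.25 on the log2 scale, adjusted p 2.66e-05), and this held with each animal left out (-1.80 to -2.23). Castrated males on DHT were below intact males by -0.92 ± 0.25 (adjusted p 0.0222), which was lost without intact male 8 (-0.77), intact male 10 (-0.86) or castrated male 62 (-0.84).

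Angptl4 was high with the gonads in place and low in every gonadectomized group. Intact females were at 0.72, 0.56, 0.56, 0.80 and 0.57, and intact males at 0.58, 0.79, 0.29, 0.16 and 0.22. The means of the 6 gonadectomized groups ran from -0.10 to -0.26, against 0.64 ± 0.11 in intact females and 0.41 ± 0.27 in intact males (SD, n = 5). No pellet brought the group mean above 0.

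In castrated males on placebo Angptl4 was lower than in intact males by -0.51 ± 0.16 (1.42-fold, adjusted p 0.0286, limma), with values of 0.21, -0.27, -0.08, -0.04 and -0.33 on placebo. One of these 5, animal 24, overlapped the intact males. Angptl4 was 1 of 6 genes to pass where 12.1% of all probes did, so the count of 1 is near the background share. Cpt2, at -0.30 with no overlap, had an adjusted p of 0.0741 (0.047 without intact male 11, at -0.34). The adjusted p of Angptl4 exceeded 0.05 without intact males 8 (-0.47) or 9 (-0.41) or castrated males 25 (-0.47) or 28 (-0.45). In females the difference after ovariectomy was larger, -0.75 ± 0.16 (1.68-fold), with no overlap between the groups, but its adjusted p was 0.0604 (0.0148 without animal 20, at -0.85). The placebo values there were -0.16, 0.04, -0.28, -0.42 and 0.32. The sexes' responses differed by -0.24 ± 0.22 (adjusted p 0.625).

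Neither pellet moved Angptl4 from placebo beyond its error. The 4 differences from placebo were -0.14 and -0.16 under estradiol and -0.02 and -0.07 under DHT, in females and males respectively, each ± 0.16. Against the intact livers both replaced groups stayed low. Ovariectomized females on estradiol were -0.89 ± 0.16 below intact females (adjusted p 0.00226), with no overlap, and castrated males on DHT -0.58 ± 0.16 below intact males (adjusted p 0.0221), with overlap. The second was lost without animals 8, 9, 62 or 63 (-0.46 to -0.53).

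**Figure D2:**
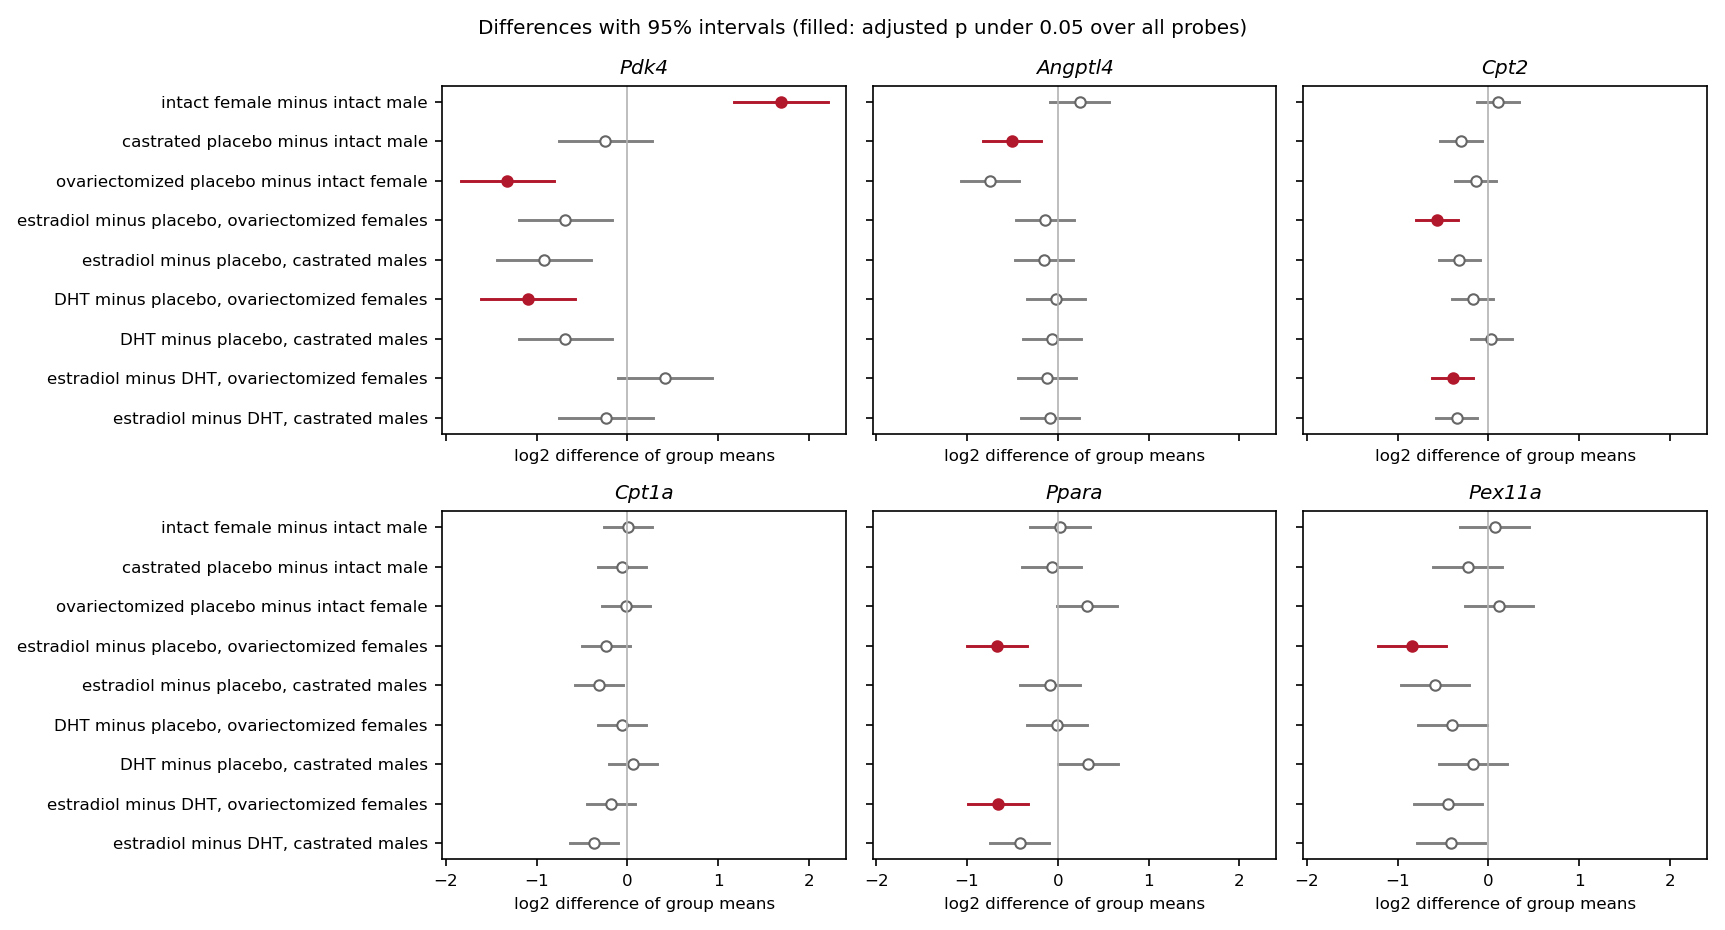
Log2 difference of group means (x axis) for 9 comparisons (y axis), one panel per gene, with 95% intervals from limma. Filled points have an adjusted p under 0.05 over all probes. Pdk4 differs between intact females and males by 1.69, and Cpt2, Ppara and Pex11a pass for estradiol against placebo in ovariectomized females, while no point for Cpt1a is filled.

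Estradiol lowered Cpt2, Ppara and Pex11a in ovariectomized females, 3 of 6 genes where 0.632% of all probes passed. All 6 genes had a mean below placebo, with a median difference of -0.62 against -0.01 over all probes. For Cpt2 the placebo animals were at 0.12, 0.18, 0.21, 0.40 and 0.28, and the estradiol animals at -0.03, -0.02, -0.71, -0.50 and -0.38. The groups did not overlap, but 2 estradiol animals, 33 and 34, sat near the pool and the other 3 well below. The difference was -0.56 ± 0.11 (1.48-fold, adjusted p 0.0116, limma), and it missed the threshold without animals 35 (-0.47), 36 (-0.52) or 37 (-0.55). It also missed the threshold in a fit on only the groups compared.

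Pex11a showed the largest estradiol difference of the 6 genes in females. Placebo animals were at 0.24, 0.19, 0.61, 0.42 and 0.58, and estradiol animals at -0.20, -0.27, -0.91, -0.34 and -0.43. Every estradiol animal lay below every placebo animal. The fall was -0.84 ± 0.19 (1.79-fold, adjusted p 0.0242), and it missed the threshold without animals 18, 19, 20, 35, 36 or 37 (-0.72 to -0.86).

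Ppara itself fell by -0.67 ± 0.16 (1.59-fold, adjusted p 0.0421). Placebo animals were at 0.28, 0.26, 0.37, 0.34 and -0.05, and estradiol animals at -0.28, -0.30, -0.69, -0.30 and -0.58, again with no overlap. The call was lost without animals 16, 17, 18, 19, 35, 36 or 37 (-0.60 to -0.70), and the direction was the same each time. Centring each array on its median lost the call too. Against DHT in place of placebo, ovariectomized females on estradiol had lower Ppara by -0.66 ± 0.16 (adjusted p 0.0147) and lower Cpt2 by -0.39 ± 0.11 (adjusted p 0.0403), 2 of 6 genes where 3.79% of all probes passed. The DHT animals were at 0.04, 0.39, 0.09, 0.40 and 0.23 for Ppara, above every estradiol animal. For Cpt2 they ranged from -0.01 to 0.22, just above the highest estradiol animal. The Ppara call was lost without animals 35 (-0.59) or 37 (-0.62), and the Cpt2 call without any one of animals 35, 36, 37, 50, 51, 52, 53 or 54 (-0.30 to -0.41). The 2 comparisons share the estradiol animals.

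In castrated males on estradiol none of the 6 genes passed in limma, where 1.18% of all probes did, although 4 had an unadjusted p under 0.05. All 6 means lay below placebo, with a median difference of -0.32 against -0.02 over all probes. Cpt2 was at 0.01, -0.73, -0.51, -0.22 and -0.29, a difference of -0.32 ± 0.11 (adjusted p 0.175), and Pex11a at 0.06, -0.87, -1.02, -0.73 and -0.39, a difference of -0.59 ± 0.19 (adjusted p 0.123). For each of these genes animal 41 was the highest, and without it Pex11a passed (-0.75, adjusted p 0.0294). Ppara was split more widely, at 0.40, -0.59, -0.82, -0.53 and 0.25, so its difference was only -0.09 ± 0.16 (adjusted p 0.816). The estradiol differences of the sexes did not differ by limma for any of the 6 genes, and 0% of all probes passed (973 at an unadjusted p under 0.05). Ppara came nearest, at -0.58 ± 0.23, with an unadjusted p of 0.0154 and an adjusted p of 0.993.

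Cpt1a passed in 0 of 17 comparisons in limma, and its unadjusted p was under 0.05 in estradiol against placebo (0.0219) and against DHT (0.00705), both in castrated males. Castrated males on estradiol were at -0.12, -0.28, -0.28, -0.31 and -0.21, close together and with a mean of -0.24 ± 0.08 (SD, n = 5). Their difference from placebo was -0.31 ± 0.13 (95% interval -0.57 to -0.05, adjusted p 0.272). Ovariectomized females on estradiol were split instead, with animals 33 and 34 at 0.33 and 0.34, at the top of the range of all females, and the remaining 3 at -0.63, -0.48 and -0.12. Over all 5 the difference from placebo was -0.23 ± 0.13 (adjusted p 0.558), and without animals 33 and 34 it was -0.53. These animals were the highest of the group for Cpt1a and were left out with that known, so the second value could only be lower and supports nothing. The means of the 6 groups without estradiol lay between 0.07 and 0.14, against SDs of 0.08 to 0.26 within them.

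Among the estradiol livers, Cpt2 tended to be lower where markers of other cells were higher, and in the females Cpt1a did too. The mean log2 ratio of 10 Kupffer cell and macrophage genes (Cd68, Adgre1, Clec4f, Marco, Csf1r, Vsig4, Cd5l, Timd4, C1qa and C1qb, all measured) was -0.20, -0.30, 1.07, 1.69 and 0.47 in ovariectomized females 33 to 37. In the castrated males on estradiol, in the order 41, 43, 44, 45, 46, it was -0.47, 0.77, 0.13, -0.23 and -0.19. In the other 30 livers it ranged from -0.81 to 0.09. The mean of 4 measured neutrophil genes showed the same animals as high, at 1.15, 1.52 and 1.05 in females 35 to 37, at 1.61 in male 43 and at 0.81 in male 44. These 5 livers held the 5 lowest values of Cpt2 in the study, and the 3 females among them were the ovariectomized estradiol animals with low Cpt1a. In the castrated males on estradiol Cpt1a was not split in this way, and animal 45, not among these 5, had the lowest value (-0.31).

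Against placebo, 0 of the 10 macrophage genes passed in limma in either sex (9 in females and 2 in males at an unadjusted p under 0.05), with median differences of 0.81 and 0.38. Against DHT, 9 of 10 were higher under estradiol in females, where 3.79% of all probes passed, Csf1r by 1.35 and Clec4f by 0.86 among them. The relations of the genes to the macrophage mean, and their split by estradiol, were not among the planned tests, so their p-values are a description. With group means removed, Cpt2 and the macrophage mean had r = -0.87 in the 10 estradiol animals (permutation p 0.0033, adjusted over 12 relations 0.0397) and r = 0.02 in the other 30 (adjusted p 0.928). Over all 40 r was -0.62 (adjusted p 0.043), rho was -0.43 (adjusted p 0.133), and r was -0.58 without the 2 animals farthest from the median of the macrophage mean. Cpt1a gave r = -0.84 in the estradiol animals (adjusted p 0.0544) and -0.05 in the others. For Pex11a r was -0.52 in the estradiol animals (adjusted p 0.172), for Ppara -0.39 (0.224), for Angptl4 -0.06 (0.892) and for Pdk4, with the opposite sign, 0.69 (0.123), and none of these 4 passed. With the macrophage mean as a covariate, a fit added after its spread was seen, the estradiol differences in ovariectomized females were -0.33 for Cpt2 (adjusted p 0.619), -0.66 for Pex11a (0.619) and -0.52 for Ppara (0.792), and none passed. With animals 33 and 34 left out, again with their values known, they were -0.77, -0.97 and -0.76. The part of these cells in the differences was not tested.

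**Figure D3:**
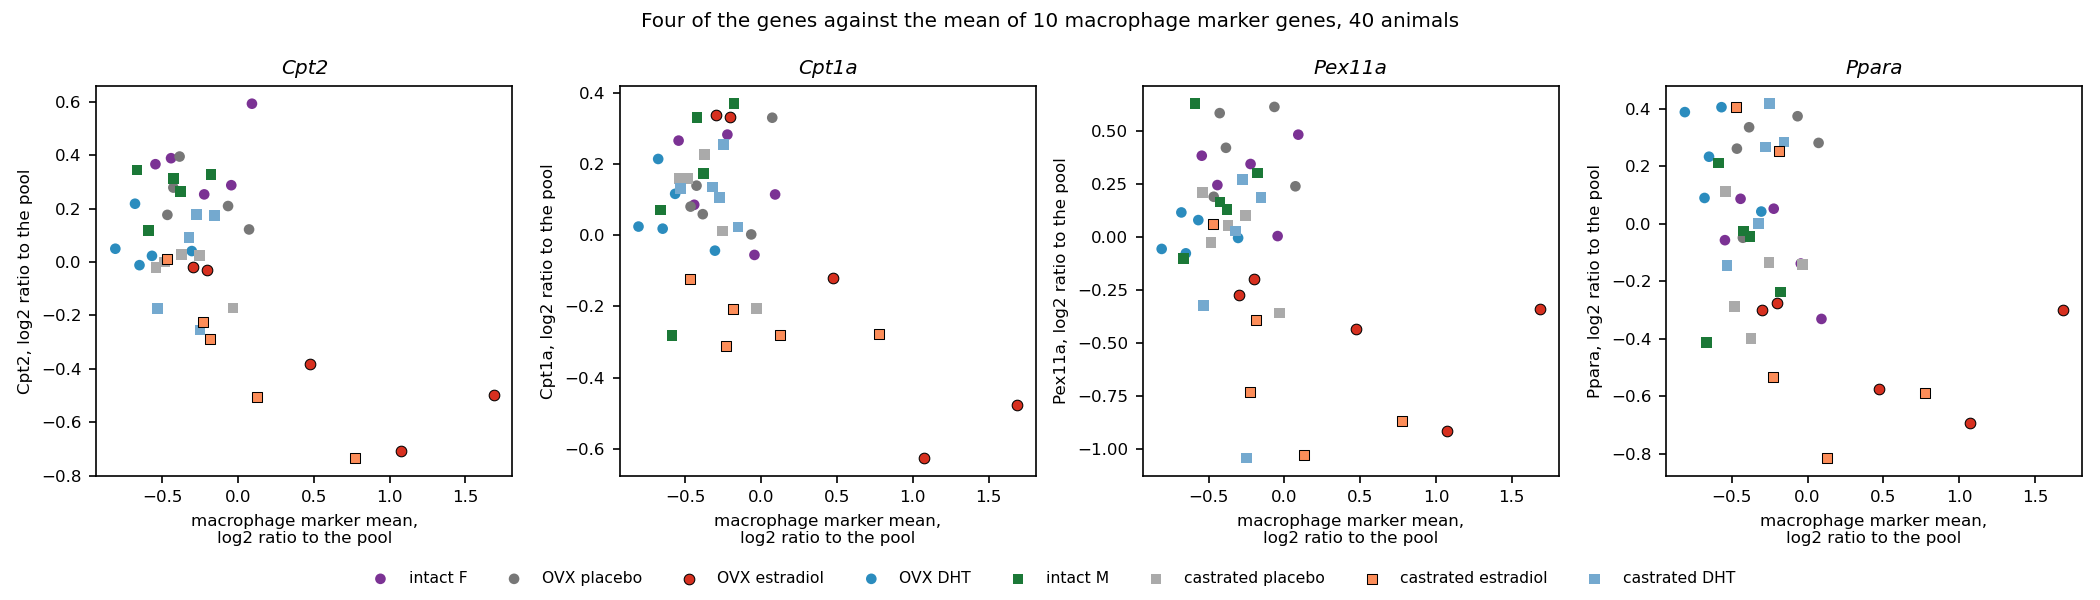
Log2 ratio to the pool of Cpt2, Cpt1a, Pex11a and Ppara (y axes) against the mean log2 ratio of 10 macrophage marker genes (x axis) in 40 animals. Outlined points are estradiol animals. The 4 animals above 0.40 on the x axis all carry estradiol and have Cpt2 from -0.73 to -0.38.

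One liver outside the estradiol groups shared part of this picture. In castrated male 63 on DHT the neutrophil mean was 1.09, while its macrophage mean was -0.25. Its Pex11a was -1.04, the lowest of all 40 livers, its Angptl4 was -0.64 and its Cpt2 was -0.25. In contrast, its Ppara of 0.42 was the highest of all 40 livers, and its Cpt1a of 0.25 was the highest of its group. The other 4 livers of its group had Pex11a between -0.32 and 0.27.

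Livers also differed in the levels of their clock genes. A clock index was formed as the mean of Dbp, Nr1d1, Nr1d2, Tef, Per1, Per2 and Per3 minus the mean of Arntl, Npas2, Clock, Nfil3 and Cry1, which are expressed in opposite phases over the day. It was lowest in intact females (-0.95 to -0.61) and intact males (-0.61 to -0.23) and highest in ovariectomized females (0.27 to 0.72) and castrated males (0.34 to 0.55) on DHT. The placebo groups spread widely, from -0.44 to 0.28 in females and from -0.54 to 0.47 in males. The sources used here do not give the time of day at which each liver was taken, so the index cannot be read as a daily phase.

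Ppara, a gene with a known daily rhythm in rodent liver, followed the index among animals of the same group. With group means removed r was 0.67 and rho 0.67 over 40 animals (permutation p adjusted over 12 relations 0.00024 and 0.00036). It was 0.66 without the 2 animals farthest from the index's median, 0.60 in the 30 animals without estradiol (adjusted p 0.00876) and 0.81 in the 10 with it (adjusted p 0.0519). The ovariectomized placebo animal with the lowest Ppara, animal 20, also had the lowest index of its group (-0.44), and the 2 castrated estradiol males with Ppara above 0, animals 41 and 46, had the highest (0.59 and 0.50). The relation of Pdk4 to the index had the opposite sign, with r = -0.39 (adjusted p 0.079), and did not pass.

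Several Pdk4 differences were smaller with the index in the fit. Intact females did not overlap ovariectomized females on placebo or estradiol in the index, nor did intact males overlap castrated males on DHT. In those comparisons group and index cannot be told apart. Intact females (-0.954 to -0.611) and intact males (-0.612 to -0.231) met only at the edge of their ranges. The same was true of ovariectomized females on placebo (at most 0.278) and on DHT (at least 0.273), so there group and index can hardly be told apart either. With the index as a covariate, the difference of ovariectomized placebo from intact females was -0.75 in place of -1.32, that of DHT from placebo in ovariectomized females -0.81 in place of -1.09, and that of castrated DHT from intact males -0.30 in place of -0.92, and none of these 3 passed. For Angptl4 the differences became -0.39 for castration (adjusted p 0.18), -0.34 for castrated DHT against intact males (0.484) and -0.70 for ovariectomized estradiol against intact females (0.0549), and none of them passed either. With the index Ppara passed for ovariectomized estradiol against intact females, at -0.90 (adjusted p 0.00167) in place of -0.35, and Cpt2 passed for castration, at -0.39 (0.0494) in place of -0.30. The Pdk4 differences of intact females from intact males (1.49) and of ovariectomized estradiol from intact females (-1.50) passed with it too. With index ranges that barely overlapped or did not, the fit cannot separate group from index in these comparisons. The estradiol differences in ovariectomized females for Cpt2 (-0.55), Ppara (-0.60) and Pex11a (-0.80) passed as well. Against DHT, where the index differed more, Ppara was at -0.28 (adjusted p 0.64) and Cpt2 at -0.30 (0.467) and neither passed. Of 11 measured glucocorticoid-responsive genes, 1 was lower after ovariectomy (Cdkn1a, -1.72), where 0.0339% of all probes passed. After castration 1 was lower (G6pc, -1.20), where 12.1% of all probes passed, so that count is near the background share. In ovariectomized estradiol against intact females 3 were lower, where 1.89% of all probes passed. In castrated DHT against intact males 4 were lower, where 6.32% did. Fkbp5, of the same list, was higher under estradiol than placebo in ovariectomized females (1.01) and castrated males (0.88). The mean of the 11 was 0.28 ± 0.24 in intact females and 0.15 ± 0.25 in intact males (SD, n = 5), and from -0.13 to -0.40 in the 6 gonadectomized groups. No fit held a glucocorticoid term, and the part of daily phase or of glucocorticoids in the Pdk4 and Angptl4 levels was not tested.

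**Figure D4:**
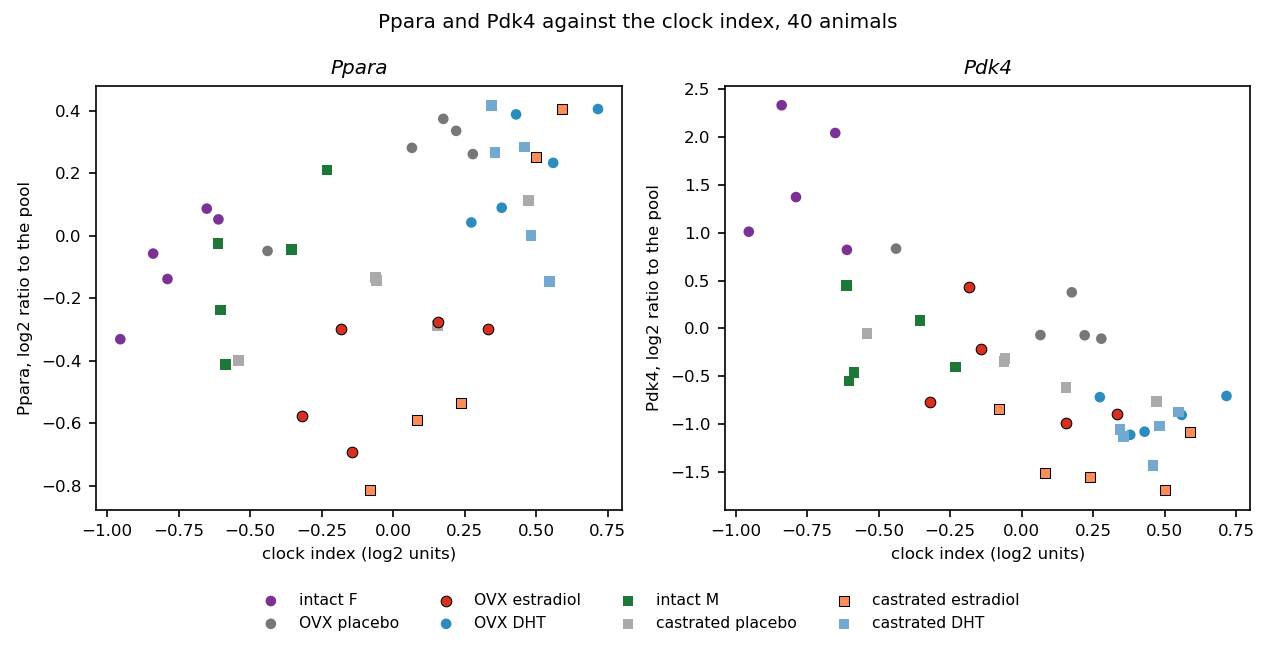
Log2 ratio to the pool of Ppara (left) and Pdk4 (right) against the clock index (x axis, log2 units) in 40 animals. Outlined points are estradiol animals. Intact females lie at the left end of the index (-0.95 to -0.61) and have the highest Pdk4, and within groups Ppara is higher where the index is higher.

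Among the 15 pairs of the 6 genes, 2 varied together from animal to animal within groups. Cpt2 and Pex11a, of the mitochondrial and the peroxisomal side of fatty acid oxidation, had r = 0.67 (permutation p adjusted over 15 pairs 6e-04) and rho = 0.62 (adjusted p 0.00705) with group means removed. The correlation was positive in 7 of 8 groups, 0.63 without the 2 animals with the farthest Cpt2, 0.81 among estradiol animals and 0.59 among the other 30. Cpt2 and Cpt1a had r = 0.53 (adjusted p 0.0399) but rho = 0.33 (adjusted p 0.302). Their r was 0.78 among estradiol animals and 0.14 among the others, and with each animal left out in turn the pair passed in 22 of 40 fits (r 0.42 to 0.59), whereas Cpt2 and Pex11a passed in all 40 (0.60 to 0.75). Ppara and Pex11a had r = 0.92 among the estradiol animals and 0.04 among the others, and over all 40 their r of 0.45 did not pass (adjusted p 0.158). Without castrated male 63 on DHT it was 0.68 (adjusted p 0.0045).

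Pdk4 and Angptl4 were both highest in intact females, and over the 40 livers they had r = 0.63. Within groups their r was 0.14 (adjusted p 0.556), so their shared pattern lay mainly between groups. All pairs share the array, the pool and the animal.

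**Figure D5:**
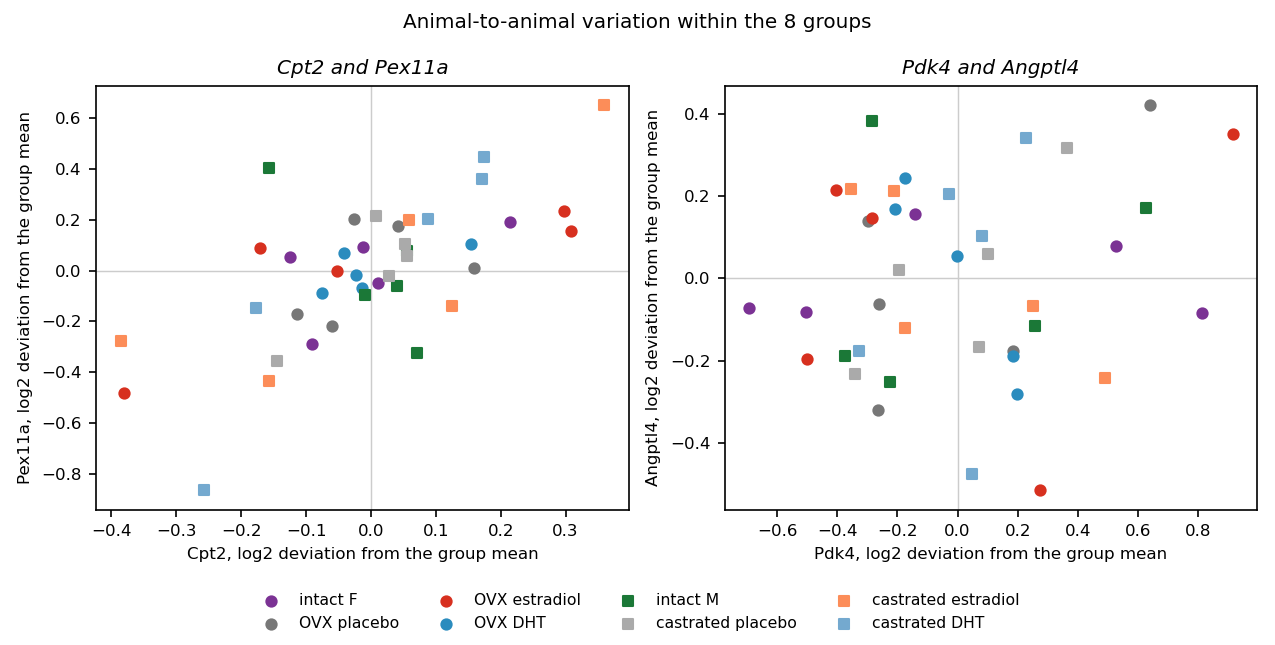
Deviation of each animal from its group mean (log2) for Cpt2 and Pex11a (left) and for Pdk4 and Angptl4 (right). Points are 40 animals coloured by group. The left cloud rises (r = 0.67) and the right one has little slope (r = 0.14).

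The remaining comparisons gave these counts. Ovariectomized females on estradiol were lower than intact females in 4 of 6 genes where 1.89% of all probes passed, with Cpt2 at -0.71 ± 0.11 (adjusted p 0.000511) and Pex11a at -0.72 ± 0.19 (adjusted p 0.035) beside Pdk4 and Angptl4. The Pex11a call was lost without animals 1, 2, 3, 5, 35, 36 or 37 (-0.60 to -0.75). Castrated males on DHT were lower than intact males in 2 of 6 genes, Pdk4 and Angptl4, where 6.32% of all probes passed. Castrated males on estradiol and on DHT differed in 0 of 6 (4 at an unadjusted p under 0.05), where 0.708% of all probes passed in limma, and Cpt1a there was -0.37 ± 0.13 with no overlap between the groups (adjusted p 0.199). Cpt2 passed there without animal 41 (-0.44) and Pex11a without animal 63 (-0.63).

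With the pellet held fixed, ovariectomized females and castrated males differed in 0 of 6 genes by limma on placebo (4 at an unadjusted p under 0.05), on estradiol (1) and on DHT (0). The shares of all probes that passed there were 0.0679%, 0.136% and 0.0806%. On placebo all 6 means were higher in females, with a median of 0.34. The largest of these differences, 0.61 ± 0.25 for Pdk4 and 0.41 for both Ppara and Pex11a, had adjusted p-values from 0.753 to 0.86. Of the sex differences in response, that to gonadectomy passed for 0 of 6 genes (1 at an unadjusted p under 0.05), where 4.4% of all probes passed. The response to DHT passed for 0 of 6 (0 at an unadjusted p under 0.05) and for 0% of all probes (1790 at an unadjusted p under 0.05).

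Around the 6 genes, 88 others of fatty acid handling were measured, from lists of PPARalpha partners and fasting regulators, uptake and carnitine shuttle, mitochondrial and peroxisomal oxidation, ketone bodies, pyruvate dehydrogenase control and lipolysis. Estradiol in ovariectomized females lowered 2 of the 88, or 2.27% where 0.632% of all probes passed. They were Crat, the carnitine acetyltransferase, by -0.60 ± 0.15 (adjusted p 0.047), and G0s2, an inhibitor of adipose triglyceride lipase, by -1.83 ± 0.37 (adjusted p 0.015). The median of the 88 was -0.13 against -0.01 over all probes, and 65 of 88 were below 0. In castrated males estradiol lowered 1 of the 88 (1.14%, against 1.18% of all probes), Gpihbp1, the anchor of lipoprotein lipase on capillaries, by -0.37. DHT lowered 3 in ovariectomized females (3.41%, against 1.15% of all probes), Rxrg (-0.60), Slc16a6 (-0.87) and Bdh1 (-0.63), of which Rxrg encodes a partner of PPARalpha, Slc16a6 a transporter and Bdh1 an enzyme of ketone bodies. In castrated males DHT lowered 5 and raised 1 (6.82%, against 3.47% of all probes), with Rxrg at -0.53, Slc16a1 at -0.99, Abcd2, a peroxisomal transporter, at -1.06, Hacl1 at -0.68 and Gpihbp1 at -0.33, and Pex11g at 0.30.

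Between the intact sexes 9 of the 88 were higher and 2 lower in females, or 12.5%, near the 8.69% of all probes. The fatty acid transporter Cd36 was 1.18 ± 0.28 higher, Abcd2 1.79 ± 0.30 and the peroxisomal thioesterase Acot3 1.20 ± 0.33. Rxrg (0.71), Fgf21 (0.34), a hormone released by the fasted liver, and Acadl (0.36), a mitochondrial acyl-CoA dehydrogenase, were higher as well. So were Gpihbp1 (0.41), Angptl6 (0.40) and Mpc1 (0.66), the last from the list of pyruvate dehydrogenase control. Acsl4 (-0.63) and Pdp1 (-0.38), a phosphatase of that same list that opposes the kinases of pyruvate dehydrogenase, were lower. Castrated males on placebo had 9 of the 88 higher and 6 lower than intact males, or 17.0%, where 12.1% of all probes passed. Among the higher were Cd36 (1.24), Abcd2 (1.85) and Acot3 (1.23). The lower were Slc16a1 (-0.81), Lpin2 (-0.75), Acsl4 (-0.59), Slc22a5 (-0.49), Fabp2 (-0.43) and Pdp1 (-0.32), and Angptl4 of the 6 genes was lower as well. Ovariectomy on placebo changed 0 of the 88 in limma (7 at an unadjusted p under 0.05), beside the fall of Pdk4. The intact sex comparison and the castration comparison share the intact males.

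Ovariectomized females on estradiol had 6 of the 88 lower and 2 higher than those on DHT, or 9.09%, where 3.79% of all probes passed. Lower were the lipid regulator Lpin2 (-0.74), the peroxisomal transporter Abcd3 (-0.93), the lipid droplet protein Plin4 (-1.30), Acsm1 (-0.45), Acsm3 (-0.77) and Pdpr (-0.47). Higher were 2 peroxisomal enzymes, Hacl1 (0.77) and Ehhadh (0.78), the second a classical target of PPARalpha, although Ppara was lower in the same livers. Against intact females the estradiol group had 7 of the 88 lower and 0 higher, or 7.95%, where 1.89% of all probes passed. Beside G0s2 (-1.64) and the thioesterase Acot1 (-0.94), these included 3 genes of the carnitine shuttle, Cpt1b (-0.67), Slc22a5 (-0.61) and Crat (-0.57), of which Slc22a5 encodes the carnitine transporter of the plasma membrane.

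For each of the 6, the 3 genes most alike in pattern were taken from 10836 others by Pearson's r over the 40 arrays, as a description. For Pdk4 they were Emb (0.83), Gadd45b (0.81) and Btg1 (0.80), and for Angptl4 they were Sesn2 (0.76), G6pc (0.75) and Wrnip1 (0.74). For Cpt2 they were Lamb3 (0.91), Chrna2 (0.88) and Retsat (0.85). Lamb3 was also among the 3 for Cpt1a (0.79, after Il17rb at 0.84) and for Pex11a (0.81, after Crat at 0.86 and Gpd2 at 0.83). Crat, the gene most alike to Pex11a, was 1 of the 2 pathway genes lowered by estradiol in ovariectomized females. Ppara was most like Il15ra (0.84), Decr2 (0.83), which encodes a peroxisomal reductase of fatty acid oxidation, and Slc12a7 (0.81).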

How the data were processed

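The authors deposited 1 value table of 40 two-colour arrays with 23574 probes, as log10 ratios of liver over pool (per the labels, Cy5 liver and Cy3 pool). The authors' background correction and normalization are not given in the sources used here, and 29 values of the table, none of them of these genes, sit at a limit of 2 or -2. The deposited log10 values were multiplied by 3.32 to give log2, and nothing else was done to them. Array medians lay between -0.0135 and 0.0109 on the log10 scale. Probes were named by the platform annotation through RefSeq: 13665 carried 1 symbol, 48 several and 9861 none, and 12662 probes of 10842 genes kept a name.

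The 8 group means were fitted in limma 3.58.1 (R 4.3.3) on all 40 arrays, with 32 residual degrees of freedom and Benjamini-Hochberg adjustment over all probes in each of 17 comparisons. The fit and the correlation test were tested on simulated data. Correlations used deviations from group means and 100000 permutations of animals within groups (20000 under the alternatives). The genes, gene lists and comparisons were chosen with earlier results of these data known, and the GC box, the CCAAT box, the TATA box (TATAAA, in 13.6% of promoters, with no match here) and the macrophage covariate were added after the data were seen. The relations of the genes to the macrophage mean and the clock index were not among the planned tests either. Genes named from a list are among the up to 4 of that list with the smallest adjusted p under 0.05 in the comparison. Not all of these are named, and not every comparison is described for the lists.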

Additional observations from a re-analysis of the deposited data

Results flagged for a closer look

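In each of 48 sets of 5 animals (6 genes in 8 groups) the gap between the highest or lowest animal and its nearest neighbour was divided by the range of the set, and 3 sets exceeded Dixon's limit of 0.71. Chance alone passes this limit in about 1 in 20 sets. Castrated male 27 on placebo had the lowest Cpt2 of its group, -0.173 against -0.0198 for the next animal, with a gap of 0.76 of the range. Ovariectomized female 52 on DHT had the highest Cpt2 of its group, 0.218 against 0.0498, with a gap of 0.732 of the range. Ovariectomized female 20 on placebo had the lowest Ppara of its group, -0.0493 against 0.261, with a gap of 0.733 of the range.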

How the results depend on the processing

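The 15 combinations of gene and comparison that passed were refitted under 279 alternatives: none reversed and 81 lost the call. Among the 87 that did not pass, 17 gained a call in some fit and 36 changed sign in some fit. Pdk4 passed in every fit run for intact females against intact males (1.49 to 1.94) and for ovariectomized estradiol against intact females (-2.33 to -1.50). No cause of a changed count below was tested, and small changes of a count are not all listed.

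Quantile normalization gave 0 genes for castration, 2 for ovariectomy, 1 for estradiol in castrated males and 0 for castrated DHT against intact males. Array weights gave 2 for castration, 2 for ovariectomy, 2 for estradiol and 2 for DHT in castrated males, 3 for estradiol against DHT in castrated males and 1 (Pdk4) for the sex difference in gonadectomy. A fit on only the groups compared gave 2 for castration, 0 for ovariectomy, 2 for DHT in ovariectomized females, 1 for DHT in castrated males, 1 for estradiol against DHT in ovariectomized females, 2 for ovariectomized estradiol against intact females and 1 for castrated DHT against intact males. For estradiol in ovariectomized females, the call of Cpt2 was lost in that fit and the call of Ppara with each array centred on its median. The clock index as covariate gave 0 for ovariectomy, for DHT in ovariectomized females, for estradiol against DHT in ovariectomized females and for castrated DHT against intact males. The macrophage mean as covariate, added after the data were seen, gave 2 for castration, 0 for estradiol in ovariectomized females, 1 for estradiol in castrated males, 0 for estradiol against DHT in ovariectomized females and 2 for ovariectomized estradiol against intact females. Without ovariectomized estradiol animals 33 and 34, 1 gene (Pdk4) differed between the sexes on estradiol.

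With each animal left out the count ran from 0 to 2 for castration, ovariectomy, castrated DHT against intact males and estradiol against DHT in ovariectomized females. It ran from 0 to 3 for estradiol in ovariectomized females, from 3 to 4 for ovariectomized estradiol against intact females, and from 0 to 1 for estradiol in castrated males, DHT in ovariectomized females, estradiol against DHT in castrated males and the sex difference in gonadectomy. Of the correlated pairs 1 passed with quantile normalization, with median centring and without animals 33 and 34, and 1 to 3 with each animal left out. Averaging all probes changed nothing, as each gene had 1 probe. No paired analysis was possible because the groups share no animal numbers. The number of arrays, 5 a group, limits precision, and signal over background was not analysed here.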
